A study of Zea mays with 18 samples.

Results

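This report describes how gene expression changed between stage S5-6 and stage S7 in anthers of maize (Zea mays) carrying an active ZmCCT10 transgene, ZmCCT(+) in the labels. The 6 libraries were chosen by their labels alone, 3 from S5-6 and 3 from S7, out of 18 in the series. The series also holds ZmCCT(+) anthers at S3-4 and anthers of non-transgenic control plants, ZmCCT(-), at S3-4, S5-6 and S7, with 3 libraries in each group. The labels give no promoter for the transgene, no line or clone, and no plant age, and do not say whether libraries came from separate plants. The p-values below therefore measure only the spread between libraries, which may be technical. All 6 libraries came from total RNA made into mRNA libraries and read as 150-bp pairs, so the values are levels of transcripts and not of mature small RNAs.

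ZmCCT10 encodes a protein with a CCT domain that holds back flowering in maize when days are long. Inside an anther, somatic layers surround cells that enter meiosis and later form pollen, and a pair of microRNA families acts in this period in grasses: miR2118 starts the production of phased small RNAs before meiosis, and miR2275 does so during it. The microRNA precursors are the only genes in the deposited tables that carry a name. All other genes are listed by identifier, so ZmCCT10 itself could not be looked up to check the genotype labels, and the markers of anther cell types could not be looked up to check the tissue. Genes are therefore described by precursor name, by identifier class, by their behaviour in libraries outside the step, and by position. Positions are given as in the deposited tables; the sources used here do not name their genome build.

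Total counts were 19286028, 23652182 and 16623732 in the S5-6 ZmCCT(+) libraries and 14846974, 19138485 and 17197041 at S7, and 28258 to 29256 genes had a count in each. Levels are given as CPM, counts scaled to a common library size by TMM. Across genes, log2 CPM of S5-6 and S7 ZmCCT(+) libraries correlated at Pearson's r of 0.952 to 0.953, while libraries of the same ZmCCT(+) stage correlated at 0.995 to 0.996. Control libraries of S5-6 and S7 correlated at 0.987 to 0.989. The S3-4 ZmCCT(+) libraries stood apart from every group, with r of 0.770 to 0.776 to S5-6 ZmCCT(+) and 0.849 to 0.854 to S7 ZmCCT(+). The 10 most abundant genes took 3.67% to 3.93% of their counts, against 1.75% to 2.10% in the other libraries. Each stage has a count table of its own and the labels name no batch, so stage and any difference between tables or runs cannot be told apart. In whole anthers, fewer cells of a type and less RNA per cell cannot be told apart either.

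Most expressed genes differed between the 2 ZmCCT(+) stages, and changes of 2-fold or more were far more numerous than over the same stages in control anthers. Of 24694 genes tested, 1846 rose (7.48%) and 1556 fell (6.3%) by at least 2-fold, with calls made at 0.05 on the adjusted p of edgeR's quasi-likelihood F test. In the controls 427 genes rose (1.73%) and 210 fell (0.85%). Without a fold minimum, 15716 genes passed in ZmCCT(+), 63.6% of those tested, with 7743 higher (31.4%) and 7973 lower (32.3%). In the controls 10462 passed (42.4%), with 5552 higher (22.5%) and 4910 lower (19.9%). The balance of these mostly small control changes depended on the processing: 53.1% of calls were higher in the edgeR fit, 48% by DESeq2's Wald test and 64.2% with an assumed spread of 20%, but 34.03% when limma-trend was run on log2(TPM + 1) and 33.6% on log2(TPM + 0.1). In ZmCCT(+) the share of calls that were higher was 49.3% and lay between 48.1% and 52.3% under every alternative run. The median absolute change was 0.35 on the log2 scale in ZmCCT(+), or 1.27-fold, and 0.20 in the controls, or 1.15-fold.

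More genes rose than fell at every size of change counted, and the numbers were closest at 16-fold or more. In ZmCCT(+), 600 genes rose and 420 fell by 4-fold or more, 254 and 202 by 8-fold or more, and 147 and 139 by 16-fold or more. In the controls 16-fold changes were seen for 5 genes that rose and 4 that fell. The CPM of the 2 ZmCCT(+) stages did not overlap for 1782 of the 1846 risers and 1515 of the 1556 fallers, against 67.3% of all genes tested. Genes of low abundance changed more often: in the lowest of 5 equal classes by mean level, up to 2.57 CPM, 620 of 4939 genes rose and 669 fell, while in the highest class, from 58.7 CPM, 296 of 4939 rose and 101 fell. Spread between replicates was small, at an estimated coefficient of variation of 3.20%, so that small differences passed. When 20% was assumed instead and the likelihood ratio test of edgeR used, 5954 genes passed in ZmCCT(+) and 559 in the controls.

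The step differed between genotypes for many genes, and how many depended on the spread taken between replicates. The edgeR test of the difference (the ZmCCT(+) change minus the control change) passed for 14950 genes (60.5%), positive for 30.3% and negative for 30.2% of those tested, and for 4260 with the assumed spread of 20%. For 1785 (7.23%) the ZmCCT(+) change was at least 2-fold more positive and for 2373 (9.61%) at least 2-fold more negative. The ZmCCT(+) and control steps share no library, so their calls can be set side by side. Among the 427 genes rising at least 2-fold in controls, 90 rose and 159 fell in ZmCCT(+), or 21.1% and 37.2%, against 7.48% and 6.3% of all genes. The lowest of the 5 classes by mean level held 275 of the 427, and 12.6% of its genes rose and 13.5% fell in ZmCCT(+). The median log2 fold change of the 427 genes in ZmCCT(+) was -0.59, against 1.34 in the controls that chose them. At a 4-fold minimum for the control rise the balance turned, with 20 of 65 genes rising in ZmCCT(+) (30.8%) and 19 falling (29.2%), at a median of -0.09. Of the 210 that fell in controls, 35 rose (16.7%) and 19 fell (9.05%) in ZmCCT(+), with a median of 0.24. The 90 genes that rose in both genotypes were 4.88% of the ZmCCT(+) risers, and the 159 with opposite directions were 10.2% of the ZmCCT(+) fallers.

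Genes that had already changed in controls between S3-4 and S5-6 were called in the ZmCCT(+) step more often against that earlier direction than along it. Of 1477 genes at least 2-fold higher at S5-6 than at S3-4 in controls (5.98% of those tested), 315 fell in the ZmCCT(+) step (21.3%) and 124 rose (8.40%), with a median log2 fold change of -0.29. Of 1250 genes at least 2-fold lower (5.06%), 301 rose (24.1%) and 157 fell (12.6%), with a median of 0.17. In this second group the balance depended on the size chosen, and at a 4-fold minimum for the control change 65 of 335 rose (19.4%) and 76 fell (22.7%). No library of this grouping enters the ZmCCT(+) step.

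The division at S3-4 between genotypes was a further grouping with no shared library. Of the 4767 genes at least 2-fold higher in ZmCCT(+) than in controls at S3-4 (19.3% of those tested), 1195 rose from S5-6 to S7 (25.1%) and 263 fell (5.52%), with a median log2 fold change of 0.39. These 1195 genes were 64.7% of all ZmCCT(+) risers. Of the 5156 genes at least 2-fold lower at S3-4 (20.9%), 102 rose (1.98%) and 644 fell (12.5%), with a median of -0.31, and the 644 were 41.4% of all fallers. At a 4-fold minimum for the S3-4 difference, 839 of 2193 rose (38.3%) and 359 of 2115 fell (17.0%). In the control step, 4.45% of the S3-4 higher group rose and 1.03% fell. This grouping rests on the S3-4 ZmCCT(+) libraries that stand apart and cannot be made without them. The step itself gave 1723 risers and 1492 fallers in a fit without any S3-4 library.

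**Figure D1:**
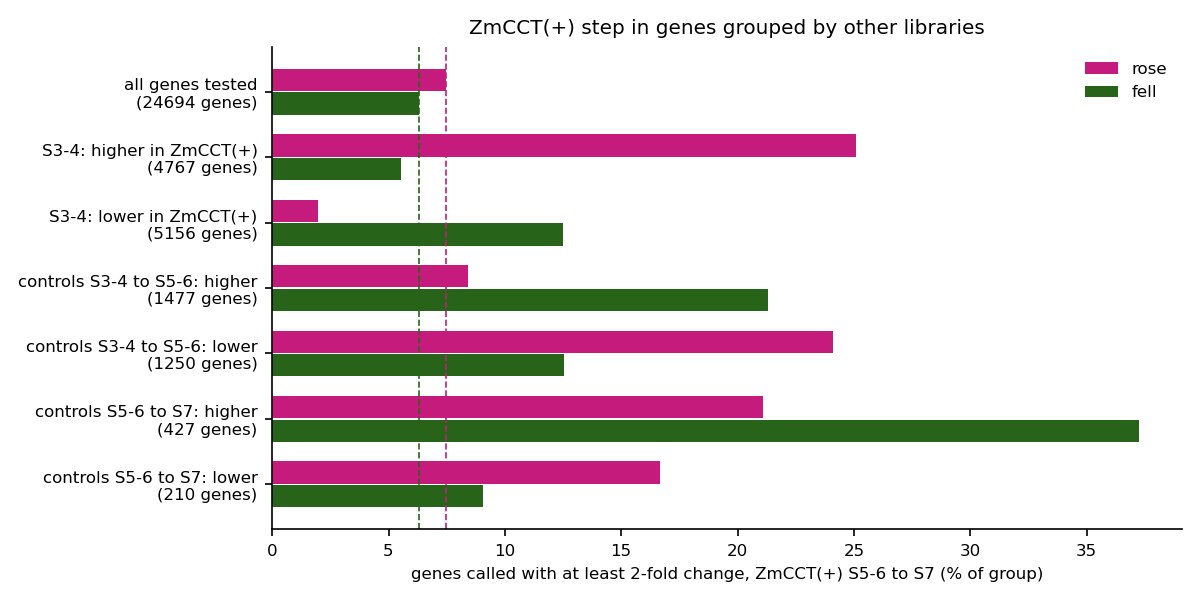
Percent of genes that rose (magenta) or fell (green) at least 2-fold from S5-6 to S7 in ZmCCT(+), for all 24694 genes tested and for 6 groups of genes defined in libraries that do not enter the step. Dashed lines mark the shares over all genes, 7.48% and 6.3%; the S3-4 higher group reached 25.1% risers and the genes rising late in controls 37.2% fallers, a lead of fallers over risers that was gone at a 4-fold minimum for the control rise.

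The levels behind these counts show where the ZmCCT(+) anthers stood at each stage. Over the 1846 risers the median level was 16.7 CPM at S3-4, 1.46 at S5-6 and 5.47 at S7 in ZmCCT(+), against 3.66, 2.998 and 3.39 CPM in the controls. Over the 1556 fallers it was 1.60, 5.93 and 1.69 CPM in ZmCCT(+), against 2.32, 3.09 and 4.12 in the controls. The values at S5-6 and S7 in ZmCCT(+) chose these genes and are a description. Each gene was compared at both stages with a single control level, the mean of the 6 control libraries of S5-6 and S7. To both values 0.1 CPM was added. By this measure 771 risers (41.8%) lay at least 2-fold below the control at S5-6 and within 2-fold of it at S7. A further 403 (21.8%) went from within 2-fold of the control to above it, and 506 (27.4%) were within 2-fold at both stages. Of the fallers, 396 (25.4%) went from above the control to within 2-fold of it, 439 (28.2%) from within to below, and 618 (39.7%) were within 2-fold at both stages.

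Among the named precursors, the change with the lowest adjusted p was the fall of zma-MIR2275c, of the family active during meiosis (chromosome 10, 70573557 to 70573793, plus strand). It was at 3.49, 3.16 and 3.08 CPM in the S5-6 ZmCCT(+) libraries and at 0.445, 0.544 and 0.384 CPM at S7, from 207 counts in all at S5-6 and 25 at S7. The 2 stages did not overlap, and every ZmCCT(+) library lay below every control library of these stages, which held 17.7 to 23.3 CPM. The precursor fell 6.94-fold (log2 -2.80 ± 0.25 SE, edgeR adjusted p = 3.53e-17). The control libraries averaged 20.2 ± 2.24 CPM at S5-6 and 22.2 ± 1.02 at S7 (SD, n = 3), and that step did not pass (log2 0.13 ± 0.09 SE, edgeR adjusted p = 0.255), and the difference between the steps did (log2 -2.93 ± 0.27 SE, edgeR adjusted p = 1.77e-16). At S3-4 it had no count in ZmCCT(+) and 6 counts in the controls.

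The other measured member of that family, zma-MIR2275b (chromosome 4, 31734063 to 31734144, plus strand), showed no such loss. It was at 1.02, 0.395 and 0.560 CPM at S5-6 and at 0.636, 1.38 and 0.877 CPM at S7, so the stages overlapped. Its log2 fold change of 0.61 ± 0.37 SE did not pass (edgeR adjusted p = 0.148), though it did without S5-6 replicate 1 (0.0281) and by limma-trend as log2(TPM + 1) (0.0190) or log2(TPM + 0.1) (0.0217). The step did not differ detectably from that of the controls (log2 -0.22 ± 0.51 SE, edgeR adjusted p = 0.733).

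The zma-MIR168a precursor, whose microRNA targets transcripts of ARGONAUTE1, rose (chromosome 5, 76534928 to 76535031, minus strand). It was at 2.13, 2.13 and 1.29 CPM at S5-6 and at 4.07, 5.54 and 6.03 CPM at S7, with no overlap. This was a 2.78-fold rise (log2 1.47 ± 0.19 SE, edgeR adjusted p = 5.76e-11). In controls it went from 2.46 ± 0.290 to 3.80 ± 0.464 CPM (SD, n = 3), a 1.57-fold rise (log2 0.65 ± 0.19 SE, edgeR adjusted p = 0.00352). The steps differed by 0.83 ± 0.27 on the log2 scale (SE, edgeR adjusted p = 0.00588), a difference that did not pass with the assumed spread of 20% (edgeR adjusted p = 0.137). Next to this precursor, from 76538416 to 76607297, lay a run of 3 neighbouring genes that fell, with a median log2 fold change of -1.97; it was noted after the values were seen.

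Precursors of miR2118, the family that acts before meiosis, had higher mean levels at S7, from low counts. zma-MIR2118e (chromosome 10, 118740501 to 118740643, minus strand) was at 0.532, 0.829 and 0.560 CPM at S5-6 and at 1.08, 1.48 and 1.21 CPM at S7. The stages did not overlap, and it rose 1.93-fold from 42 to 69 counts (log2 0.95 ± 0.34 SE, edgeR adjusted p = 0.0118). The call was lost without S5-6 replicate 1 or S7 replicate 2 (edgeR adjusted p = 0.0515 and 0.0694), and when edgeR's glmTreat tested for a change beyond 1.5-fold (adjusted p = 0.225). zma-MIR2118c, on the same strand of chromosome 10 (118813614 to 118813746), had 11 counts at S5-6 and 23 at S7, and its log2 fold change of 1.26 ± 0.59 SE did not pass (edgeR adjusted p = 0.0564). It passed without S5-6 replicate 1 or 3, without S7 replicate 2, and with limma-voom, at adjusted p from 0.0248 to 0.0488. Neither step differed detectably from the control step (edgeR adjusted p = 0.402 and 0.388).

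The miR156 precursors, whose microRNAs target SPL transcription factors, were too rare to show a change. zma-MIR156d (chromosome 5, 94725847 to 94725965) had 22 counts at S5-6 and 14 at S7, which is a ratio of 1.33 (95% counting interval 0.653 to 2.82), and a log2 fold change of -0.41 ± 0.57 SE (edgeR adjusted p = 0.541). zma-MIR156j (chromosome 7, 134663764 to 134663888) had 14 and 19 counts, and a log2 fold change of 0.65 ± 0.60 SE (edgeR adjusted p = 0.346). Of 154 precursors listed, 7 passed the filter on low counts, so 2 rose, 1 fell and 4 did not pass, against 31.4% and 32.3% of all genes. The sources used here do not say whether counting used the strand, so reads from genes that overlap a precursor cannot be told apart from its own.

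**Figure D2:**
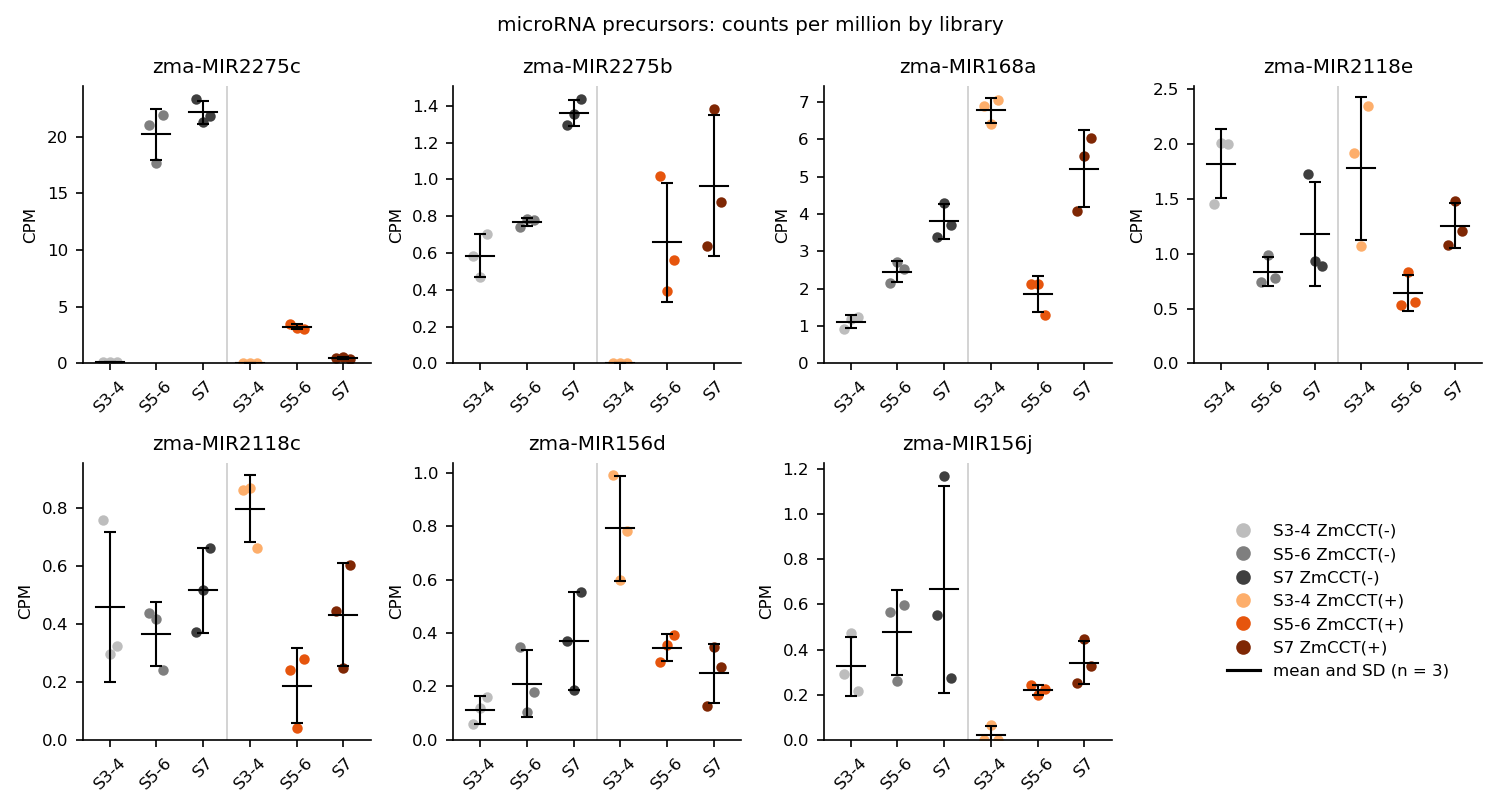
CPM of the 7 microRNA precursors tested, 1 point per library, by stage in ZmCCT(-) (grey, left) and ZmCCT(+) (orange to brown, right), with mean and SD of 3 libraries. zma-MIR2275c fell from 3.08 to 3.49 CPM at S5-6 to 0.384 to 0.544 CPM at S7 in ZmCCT(+), while control libraries of both stages held 17.7 to 23.3 CPM.

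Short genes with ENSRNA identifiers, a class that the tables list without names, held few genes that rose in ZmCCT(+). Of 1635 listed, 99 were tested, with lengths of 72 to 1812 bases and a median of 119. In ZmCCT(+) 27 of the 99 fell and 6 rose at any size, against 32.3% and 31.4% of all genes tested. By at least 2-fold 19 fell (19.2%) and 1 rose (1.01%), against 6.3% and 7.48% of all genes. The median log2 fold change was -0.21, against -0.01 over all genes. In controls 6 fell and 12 rose, with a median of 0.23, and the difference between the steps was lower for 26 genes and higher for 7. These counts depended on the processing. On log2(TPM + 1), limma-trend gave 33 that fell and 24 that rose. With the stricter filter 19 were tested, of which 7 fell and 4 rose, and their median log2 fold change was 0.02; with no filter it was 0. Most of these genes were at low levels. ENSRNA049458826 on chromosome 5 (78513416 to 78513534), chosen after its values were seen as a more abundant member, fell from 8.36 ± 0.0877 to 3.40 ± 0.672 CPM in ZmCCT(+) (SD, n = 3; log2 -1.30 ± 0.16 SE) and was at 3.03 ± 0.821 and 5.71 ± 0.0752 CPM in the controls. The 2 most abundant, likewise chosen by level, did not fall: ENSRNA049479257 rose from 100.6 ± 4.23 to 137 ± 36.9 CPM (edgeR adjusted p = 0.0251), and ENSRNA049479549 from 70.1 ± 7.24 to 77.5 ± 7.17 CPM, a step that did not pass (edgeR adjusted p = 0.196). The share of all counts held by the class was 0.0395% ± 0.0001 at S5-6 and 0.0435% ± 0.0059 at S7 (SD, n = 3), a difference with p = 0.2 in a two-sided exact permutation test, in which 3 against 3 libraries cannot go below 0.1.

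Some genes went from no measurable transcript to a clear level, or the reverse. Counting a gene as silent at 3 counts or fewer over the 3 libraries of a stage, and as expressed at 10 or more counts in each, 60 genes were silent at S5-6 and expressed at S7 (0.247% of 24280 genes expressed in any group), and 91 were expressed at S5-6 and silent at S7 (0.375%). Their levels at the expressed stage ran from 0.581 to 65.0 CPM for the first set and from 0.509 to 113 CPM for the second, with medians of 1.62 and 2.04 CPM. With at least 50 counts in each library of the expressed stage, 18 and 42 were left.

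The 2 sets differed in how the controls stood. Of the 60 genes that appeared at S7, 25 were silent in all 3 control stages and 14 were expressed in all 3. Of the 91 that disappeared, 51 were expressed in all 3 control stages and 11 were silent in all 3. At S3-4 in ZmCCT(+), 42 of the 60 and 41 of the 91 were expressed. Among the 25 without control transcripts, 16 were expressed in S3-4 ZmCCT(+), so they were present, absent and present again over the 3 transgenic stages. Among the 51 with control transcripts throughout, 33 were also expressed in S3-4 ZmCCT(+), and their absence was seen in S7 ZmCCT(+) alone among the 6 groups. Chromosome 3, with 2648 of the 24694 genes tested, held 20 of the 91 genes, of which 13 lay in the single stretch described below. These 13 neighbours are all among the 51 and the 33 above. Chromosome 4, with 2508 tested, held 19 of the 91, and chromosome 8, with 2255, held 11 of the 60.

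**Figure D3:**
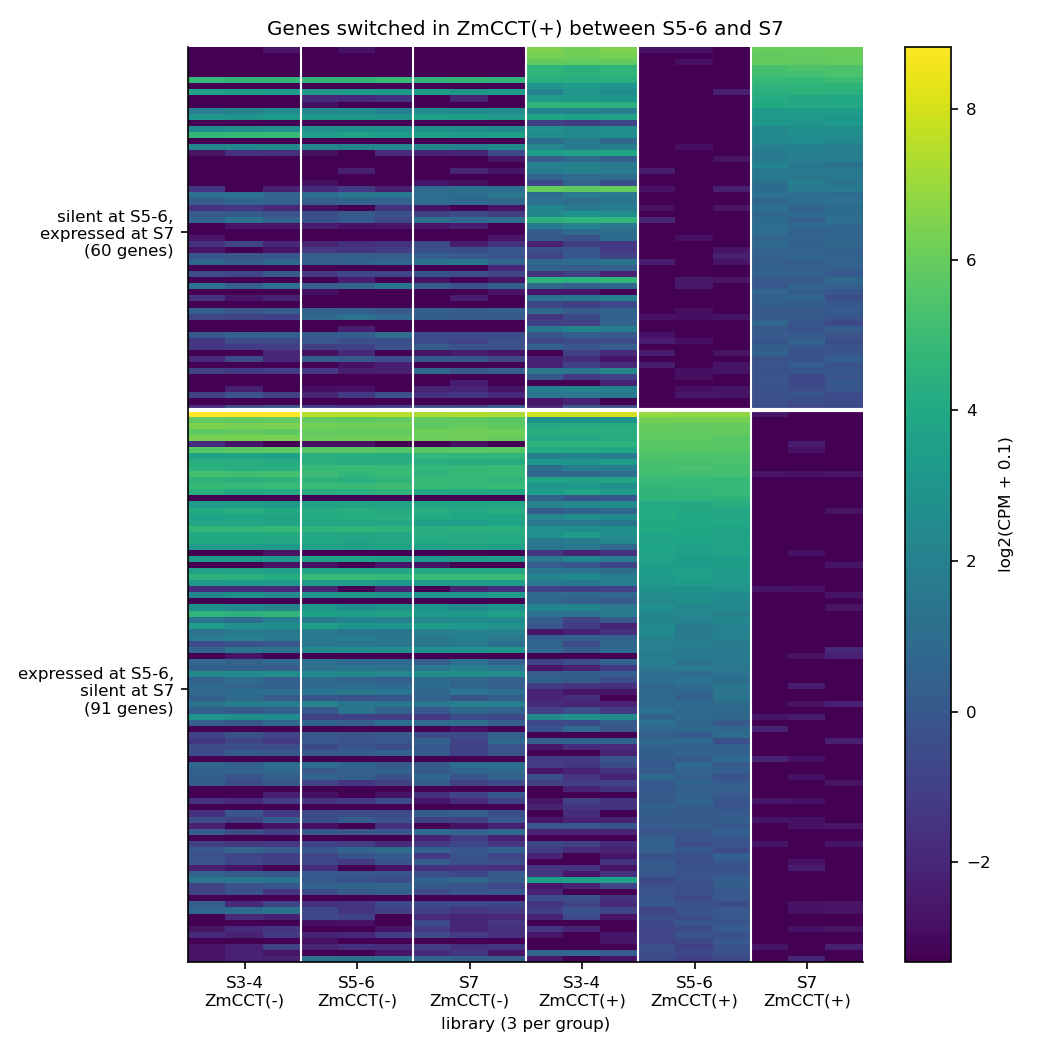
log2(CPM + 0.1) in each of the 18 libraries for the 60 genes silent at S5-6 and expressed at S7 in ZmCCT(+) (upper block) and the 91 genes with the reverse pattern (lower block), ordered by level at the expressed stage. In the upper block 42 genes were expressed in S3-4 ZmCCT(+), and in the lower block 51 genes were expressed in all 3 control stages.

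The strongest single changes were of this kind, ranked with a stage of no count set to 3 counts. Stages with 1 or 2 counts were left as they were. At a like level, a gene with no count at a stage thus ranks below a gene with 1 count there. Zm00001d047323 (chromosome 9, 126607955 to 126611605) had 0, 1 and 0 counts at S5-6 and 970, 1173 and 1147 at S7, or 61.6, 58.0 and 62.9 CPM, which is 3875 times as much (exact 95% counting interval 695 to 153103, edgeR adjusted p = 1.63e-60). It was at 59.2 ± 0.924 CPM in S3-4 ZmCCT(+) and had no count in any control library. The edgeR test of the difference between steps is not usable for a gene with no control count (adjusted p = 0.9998), while limma-voom gave 2.14e-13. Zm00001d008904 (chromosome 8, 24559394 to 24563053) followed the same course, with 83.1 ± 8.38 CPM at S3-4, 2 counts at S5-6 and 63.3, 64.0 and 67.8 CPM at S7, which is 2077 times as much (interval 575 to 17158, edgeR adjusted p = 1.34e-61). The controls held 1, 1 and 0 counts over the 3 stages. Its step differed from that of the controls (edgeR adjusted p = 0.000821), a call that rests on the single S5-6 control count, in replicate 2, and was lost without that library.

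Zm00001d043151 (chromosome 3, 190214692 to 190220053) and Zm00001d012308 (chromosome 8, 172187449 to 172194743) had the most positive difference between the steps of the genes ranked. That ranking took only genes whose difference passed, with at least 5 CPM and no overlap of stages. A gene with no control count, such as Zm00001d047323, could not enter, as the test is not usable for it. Zm00001d043151 had no count at S5-6 and 16.5, 15.8 and 15.9 CPM at S7, which is at least 342-fold higher when the S5-6 group is set to 3 counts over its libraries (edgeR adjusted p = 6.17e-42), after 22.8 ± 1.95 CPM at S3-4. Zm00001d012308 had no count at S5-6 and 18.2, 16.1 and 14.1 CPM at S7, also at least 342-fold higher (edgeR adjusted p = 1.13e-39), after 9.06 ± 0.737 CPM at S3-4. The controls held 1 count of the first gene over all stages, in S5-6 replicate 1, without which its difference between steps was not called. They held 0, 11 and 3 counts of the second at S3-4, S5-6 and S7.

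The gene with the strongest fall, when a stage with no count is set to 3 counts, was abundant in every other group. Zm00001d024543 (chromosome 10, 77529347 to 77533684) was at 119, 111 and 110 CPM in the S5-6 ZmCCT(+) libraries, from 7234 counts, and had 1, 0 and 0 counts at S7. That is 6142 times less, with exact 95% counting limits of 1102 and 242621 (edgeR adjusted p = 1.89e-80). In ZmCCT(+) at S3-4 it was at 247 ± 5.87 CPM, and in controls at 452 ± 1.31, 183 ± 0.349 and 162 ± 4.45 CPM over the 3 stages (SD, n = 3). The control step was a 1.13-fold fall (log2 -0.18 ± 0.03 SE, edgeR adjusted p = 1.21e-06), and the difference between the steps passed (edgeR adjusted p = 5.26e-74).

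The other 3 genes named for a fall or for the most negative difference between the steps, Zm00001d044481, Zm00001d044469 and Zm00001d044461, lay within 1 stretch of chromosome 3. From 228815712 to 229578470, over 763 kb, the tables list 25 genes, and all 14 of them that were expressed in any group were near or at 0 in S7 ZmCCT(+). Of the 14, 11 had no count in the 3 libraries and the others had 1, 3 and 4. The labels do not say whether the plants of the 3 stages shared a genetic background, so stage and any such difference between plants cannot be told apart here. The end of the stretch was set after the values were seen, by the last gene with 4 counts or fewer. Summed over the 14 genes, S5-6 ZmCCT(+) libraries held 531, 528 and 524 CPM and S7 libraries 0.191, 0.198 and 0.0548 CPM, from 33704 counts against 8. Control libraries held 505 to 520 CPM at S5-6 and 492 to 496 at S7.

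Gene by gene, the fall within the stretch was at least 197-fold to at least 1388-fold for the 11 genes without a count, against the floor of 3 counts over the S7 libraries. Zm00001d044469 (229010501 to 229015061) was at 76.3, 78.7 and 74.9 CPM at S5-6, and Zm00001d044461 (228815712 to 228816647) at 59.8, 59.5 and 60.7 CPM. Zm00001d044481 (229389338 to 229411816) was at 48.9, 51.3 and 50.6 CPM at S5-6 and had 1 count at S7. For all 14 genes both the fall and the difference from the control step passed, with the highest edgeR adjusted p at 1.45e-38 and 6.93e-32. The stretch was set by its S7 ZmCCT(+) counts, so these p-values are a description and no support for it. In the control step 3 of the 14 were higher and 3 lower. The median TPM of the 14 genes in the per-library tables, which the authors deposited apart from the counts, was 26.5, 25.6 and 25.005 in the S5-6 libraries and 0 in each S7 library.

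Levels in the stretch differed from the controls at S3-4 as well. The S3-4 ZmCCT(+) libraries held 157 CPM each over the 14 genes, and the S3-4 controls 521 to 528 CPM. The ratio of ZmCCT(+) to control at S3-4 was below 1 for all 14 genes, from 0.0470 to 0.577 with a median of 0.329. In the 5 expressed genes on each side it ran from 0.133 to 7.67 with a median of 0.956, so a low ratio at S3-4 was also seen outside the stretch. At S5-6 the ratio within the stretch ran from 0.735 to 1.97 with a median of 0.996. The same flanking genes had log2 fold changes from -1.35 to 0.44 in the ZmCCT(+) step and ratios of ZmCCT(+) to control at S7 from 0.397 to 1.13. The flanking gene with the lowest of both, Zm00001d044489 (229578773 to 229579468), is the first after its end.

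**Figure D4:**
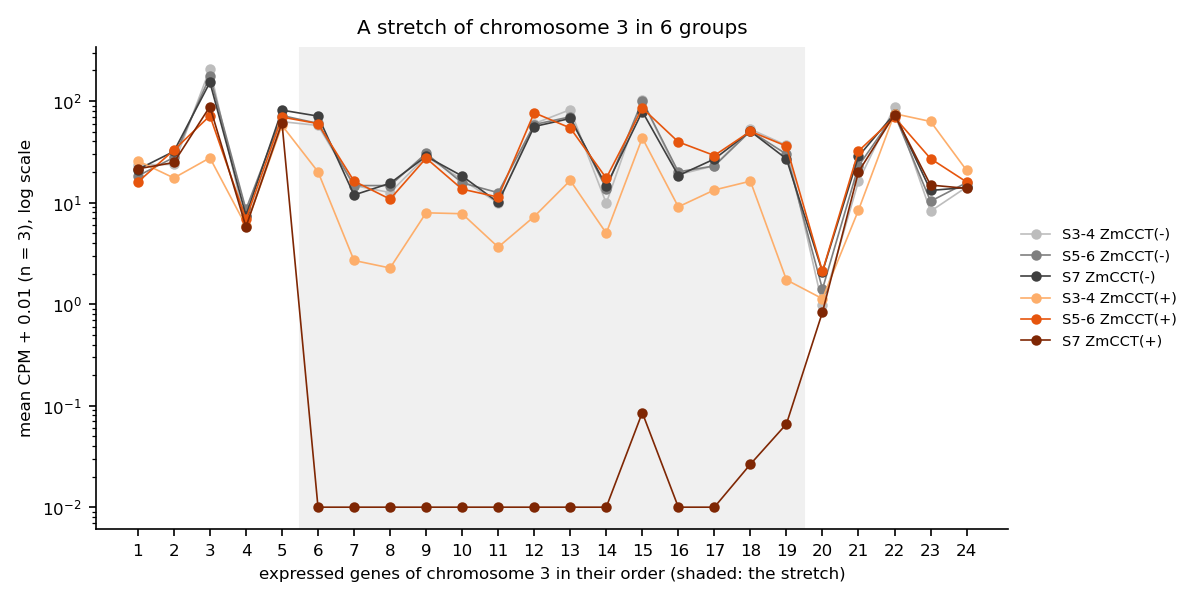
Mean CPM + 0.01 (n = 3, log axis) of 24 expressed genes of chromosome 3 in their order, 14 in the stretch (shaded) and 5 on each side, in the 6 groups. S7 ZmCCT(+) drops to 0.0753 CPM or less within the shaded genes and lies at 0.397 to 1.13 times the S7 control in the 10 genes outside.

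Runs of neighbouring genes that moved the same way were otherwise short. A run was counted as expressed genes next to each other that were all called with a change of at least 2-fold. Among fallers 1 run held 15 genes, the stretch above and its neighbour, 2 runs held 4 and 20 held 3. Among risers 8 runs held 4 and 17 held 3. Of these runs 13 had a median change of at least 8-fold, 7 downward and 6 upward. They were chosen by the step, so their ZmCCT(+) values are a description, and no test was made of them.

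The 13 runs fell into different patterns when set beside the controls. On chromosome 5, 3 genes between 52378759 and 52606562 summed to 38.9, 36.2 and 38.0 CPM at S5-6 and to 1 count in all at S7. The controls held 1 count of them over 9 libraries, and S3-4 ZmCCT(+) 2.91, 3.07 and 2.77 CPM, so their transcripts were almost wholly those of ZmCCT(+) anthers before S7. On the same chromosome, 3 genes between 65058244 and 65147468 rose from 5.28, 5.41 and 5.82 CPM to 122, 123 and 121 CPM. Controls held 93.2 to 104 CPM of them at S5-6 and 96.3 to 102 at S7, and S3-4 ZmCCT(+) 97.7 to 115 CPM, so the low value belonged to the S5-6 ZmCCT(+) libraries.

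In other runs the level at 1 stage was near that of the controls. On chromosome 7, 3 genes between 2895121 and 3077525 went from 11.1, 11.02 and 9.96 CPM to 67.3, 71.8 and 68.6 CPM, with controls at 10.9 to 13.3 CPM in both stages. On chromosome 2, 4 genes between 12121541 and 12242986 went from 28.0, 30.3 and 30.0 CPM to 5.53, 5.24 and 5.48 CPM, with controls at 20.3 to 25.1 CPM. On chromosome 4, 3 genes between 192393400 and 192501838 went from 15.97, 18.2 and 17.7 CPM to 74.99, 74.8 and 74.8 CPM, with controls at 15.4 to 17.96 CPM. In these 3 runs the S7 ZmCCT(+) libraries lay outside the range of the controls.

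The same held for 2 runs at lower levels. On chromosome 4, 3 genes between 203236781 and 203327583 went from 7.84, 7.58 and 8.06 CPM to 1.33, 1.53 and 1.75 CPM, with controls at 6.36 to 8.84 CPM. On chromosome 10, 3 genes between 72864114 and 73944249 went from 2.13, 2.49 and 2.07 CPM to 0.508, 0.198 and 0.164 CPM, with controls at 1.80 to 2.59 CPM. Others were above the controls at S5-6. Also on chromosome 5, 3 genes between 61281948 and 61420504 went from 75.7, 71.7 and 74.6 CPM, above the 19.5 to 22.9 CPM of the S5-6 controls, to 14.6, 17.01 and 18.3 CPM at S7, below the 24.9 to 28.1 CPM of the S7 controls. On chromosome 1, 3 genes between 16562282 and 16707032 went from 11.8, 13.8 and 12.9 CPM to 2.03, 2.22 and 1.86 CPM, beside 1.74 to 3.04 CPM in the controls of both stages.

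As in the chromosome 5 run that rose, the level went from below the control to above it in 3 more runs, the last of them on chromosome 4. On chromosome 8, 3 genes between 25046318 and 25175032 summed to 29.9, 26.3 and 30.6 CPM at S5-6 and to 107, 106 and 101 CPM at S7, beside controls of 64.3 to 69.4 and 52.5 to 55.8 CPM. On chromosome 2, 3 genes between 12564577 and 12640584, near the run on that chromosome that fell, went from 20.4, 19.2 and 19.4 CPM to 42.6, 47.6 and 46.2 CPM, beside controls of 41.1 to 41.8 and 28.7 to 29.05 CPM. The ZmCCT(+) and control libraries did not overlap at either stage in the runs on chromosomes 8 and 2.

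The run with the highest S3-4 ZmCCT(+) level lay on chromosome 4. Its 3 genes between 10513764 and 10554681 summed to 967 to 1011 CPM in S3-4 ZmCCT(+), to 6.39, 8.25 and 6.49 CPM at S5-6 and to 145, 137 and 143 CPM at S7. Controls were at 57.15 to 62.9, 30.1 to 31.0 and 87.0 to 93.3 CPM over the stages. Their summed level was thus also higher at S7 than at S5-6 in controls, above that of ZmCCT(+) at S5-6 and below it at S7.

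**Figure D5:**
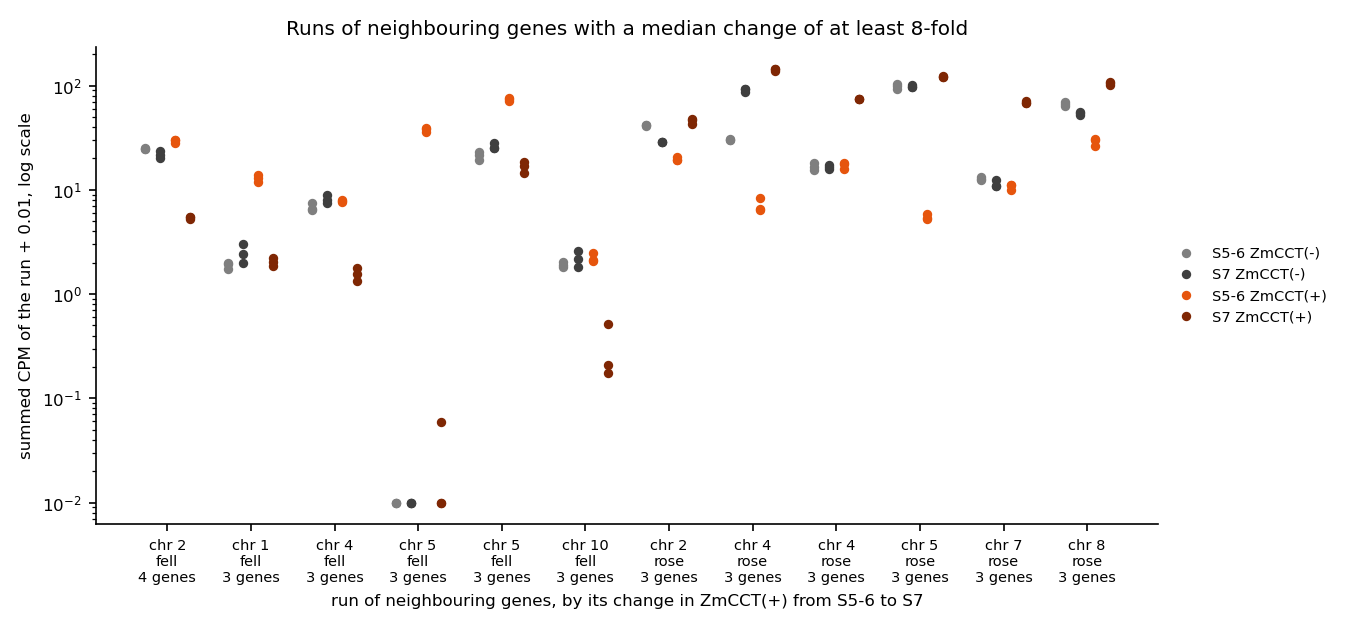
Summed CPM + 0.01 (log axis) of 12 runs of 3 or 4 neighbouring genes with a median change of at least 8-fold, 1 point per library, in S5-6 and S7 of ZmCCT(-) (grey) and ZmCCT(+) (orange and brown). The chromosome 3 stretch is left out; the first chromosome 5 run had no count in the S5-6 and S7 controls, while the chromosome 5 run that rose reached 121 to 123 CPM beside controls of 93.2 to 104 CPM.

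Changes were otherwise spread over all chromosomes. The share of tested genes that rose ran from 6.22% on chromosome 5 to 8.89% on chromosome 4, and the share that fell from 5.23% on chromosome 8 to 7.93% on chromosome 4. Chromosome 3 held 10.498% ± 0.007 of all counts at S5-6 and 10.205% ± 0.004 at S7 (SD, n = 3), with no overlap. The two-sided exact permutation test gave p = 0.1, the smallest that 3 against 3 libraries allow, and 0.133 after Benjamini-Hochberg adjustment over 12 shares. The controls held 10.463% ± 0.010 and 10.375% ± 0.007.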

How the data were processed

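Counts, 1 table per stage, are raw reads per gene, not normalised by the authors; per-library tables that the authors deposited give TPM and, per the file headers, coverage (mean read depth per base), used here to check columns. The submitters' processing notes name Bowtie2, StringTie and DESeq2. Not given in the sources used here: genome build, strand counting, multi-mapping treatment and tool versions. Columns named WT and OE were read as ZmCCT(-) and ZmCCT(+), and 18 of 18 matched their own sample's coverage best.

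Of 45578 genes, 24694 passed filterByExpr (minimum count 10, total 15). Total counts ran from 14846974 to 23652182, which sets a floor of 3 counts per group at 0.0470 to 0.0642 CPM; intervals are exact Clopper-Pearson at 95% and, like floors, cover counting error only. Groups followed the labels. The edgeR 4.0.16 (R 4.3.3) quasi-likelihood F test (robust, TMM) used 1 fit of 18 libraries in 6 groups, with 12 residual degrees of freedom, and Benjamini-Hochberg adjustment over all genes. SE was taken as the size of the log2 fold change divided by the root of F. Alternatives were DESeq2 1.42.0 (size factors, Wald test), limma 3.58.1 (voom, and trend on log2(TPM + 1) and log2(TPM + 0.1)), other filters, a replicate block, fewer libraries, leaving out each library, glmTreat at 1.5-fold, an assumed spread of 20% and other limits of the gene groups.

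Named were all precursors tested. Among genes without a name, the 2 highest and 2 lowest log2 ratios of mean CPM in the step were taken. The same was done for its fitted difference between genotypes. These genes had a step that passed, at least 5 CPM and no overlap of stages. For the step a stage with no count was set to 3 counts over its libraries. The difference was ranked as fitted, among genes for which it passed. Members and lists were chosen with earlier results of these data known. Of 43789 Zm00001d identifiers 0 matched a gene table of assembly Zm-B73-REFERENCE-NAM-5.0, 153 of 154 precursors did, and 34 gene lists had 0 matched members. The labels do not say whether replicate numbers pair libraries. Same-numbered libraries did not deviate together (correlations of their deviations from -0.0568 to 0.0336), which does not settle it. All ZmCCT(+) replicate pairs of the 2 stages differed beyond counting noise (chi-square over degrees of freedom 1.57 to 1.93).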

Additional observations from a re-analysis of the deposited data

Results flagged for a closer look

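The step from S5-6 to S7 differed between ZmCCT(+) and control anthers by the edgeR test of the difference itself (the ZmCCT(+) log2 fold change minus the control's) for 14950 genes, for 9 of the genes named by the rule, and for all 14 genes of the chromosome 3 stretch. Genes named for their difference were taken only where it passed, and the stretch was set by its S7 ZmCCT(+) counts. For both, the passing follows from the choice and is a description. Among the precursors it was -2.93 for zma-MIR2275c, which fell in ZmCCT(+) alone, and 0.83 for zma-MIR168a, which rose in both genotypes (edgeR adjusted p = 1.77e-16 and 0.00588).

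Of the genes that appeared at S7 in ZmCCT(+), the difference was 12.55 for Zm00001d008904, 13.02 for Zm00001d043151 and 12.895 for Zm00001d012308 (edgeR adjusted p = 0.000821, 0.000343 and 1.02e-14). These sizes depend on the prior count of the fit, because the S5-6 group holds 2 counts or none, and are no bounds. Of the genes that disappeared, it was -11.96 for Zm00001d024543, -10.95 for Zm00001d044481, -13.40 for Zm00001d044469 and -13.35 for Zm00001d044461 (edgeR adjusted p from 5.26e-74 to 7.43e-58). For these 4 the controls held 50.4 to 183 CPM at both stages. Their S7 ZmCCT(+) group holds 1 count or none, so these sizes likewise depend on the prior count and are no bounds.

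The difference also passed for genes chosen after their values were seen, ENSRNA049458826, ENSRNA049471654, ENSRNA049471660 and Zm00001d044489 (edgeR adjusted p = 2.19e-14, 1.54e-07, 2.10e-05 and 8.73e-06).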

How the results depend on the processing

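Of 216 summary values recomputed under alternatives, 178 stayed near the main run. Near meant within 1.5-fold for counts of genes and inside the 95% counting interval for percentages. For changes in count share it meant within the larger SD of the stages. Of 596 values of named genes, 579 kept their call at an adjusted p of 0.05. A value that passed in neither run was counted as kept whatever its direction. With an assumed spread of 20%, 5954 genes were called in ZmCCT(+), 559 in the controls (275 at least 2-fold higher) and 4260 for the difference between steps. With glmTreat at 1.5-fold 4346 were called in ZmCCT(+). On log2(TPM + 1), limma-trend called 1209 risers and 917 fallers in ZmCCT(+), 91 and 72 in the controls, and a step at least 2-fold more negative for 1464. The stricter filter (50 counts) gave 221 and 88 in the controls. Genes silent at S5-6 and expressed at S7 numbered 18 with at least 50 counts and 35 with no count allowed; the reverse set numbered 42 and 60.

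For genes higher at S3-4 in ZmCCT(+), risers were 38.3% with a 4-fold minimum, and 26.6% (4.28% fallers) with the stricter filter; for genes lower there, fallers were 17.0% (4-fold) and risers 1.37% (stricter). For genes rising early in controls, fallers were 24.97% (stricter); for genes falling early, risers and fallers were 19.4% and 22.7% (4-fold). For genes rising late in controls, they were 30.8% and 29.2% (4-fold), and 30.3% and 44.3% (stricter); for genes falling late, risers were 32.3% (4-fold). Over all genes the stricter filter gave 6.80% and 5.26%. Without the 10 most abundant genes the change in count share, in percentage points, was -0.136 for chromosome 1, 0.123 for 2, -0.284 for 3, -0.0957 for 7 and 0.241 for 9. It turned to -0.0506 for chromosome 4 and to 0.132 for chromosome 10. The cause was not tested, beyond the fewer genes that the stricter filter and higher limits leave.

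A replicate block gave 15669 calls in ZmCCT(+) (1835 and 1542 at 2-fold), 10402 in the controls and 14914 for the difference, and changed no call of a named gene; same-numbered libraries did not deviate together. Leaving out each library gave 14845 to 15020 calls, 1792 to 1851 risers and 1508 to 1584 fallers in ZmCCT(+). In the controls the ranges were 9330 to 9467, 391 to 436 and 192 to 216, and for the difference 14383 to 14530, 1721 to 1788 and 2317 to 2396. Precursors other than zma-MIR2275c and zma-MIR168a had at most 69 counts at S5-6 or S7 of ZmCCT(+), where an absent call is no sign of no change.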

Other observations

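Counts of all precursors together took 0.000921% ± 0.000124 of the S5-6 and 0.00122% ± 0.000164 of the S7 ZmCCT(+) counts (SD, n = 3), and 0.00274% ± 0.000261 and 0.00327% ± 7.93e-05 in the controls. The ZmCCT(+) difference had p = 0.2 in a two-sided exact permutation test. Other chromosomes that gained or lost more than 0.1 percentage points of the ZmCCT(+) counts between the stages were chromosome 2 (0.153), chromosome 9 (0.117), chromosome 5 (0.1001) and chromosome 8 (-0.132), each without overlap between stages and at p = 0.1, the smallest the exact test allows.

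Genes of the short ENSRNA class lay near each other on several chromosomes, among them 5, 6 and 10. On chromosome 10, ENSRNA049471654 (74956675 to 74956844) and ENSRNA049471660 (74957020 to 74957188), noted after their values were seen, both fell in ZmCCT(+). They went from 1.35 to 0.307 and from 1.18 to 0.171 CPM (means, n = 3), and belong to a run of 3 neighbouring genes that fell. ENSRNA049456769 on chromosome 5, fell from 1.28 ± 0.447 to 0.0588 ± 0.0641 CPM (SD, n = 3) and had no count in the S5-6 and S7 controls. It lies at the start of the run of chromosome 5 genes that went from above the control level to below it.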
